A study of Mus musculus with 12 samples.

Results

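The genes described here are 9 genes of cholesterol synthesis: 8 enzymes of the pathway, Hmgcs1, Idi1, Fdps, Fdft1, Sqle, Lss, Cyp51 and Dhcr7, and its feedback regulator Insig1. They were chosen by name, as the rows of 3 Cuffdiff tables whose gene column holds one of the 9 symbols. The choice was made with earlier results of these data known. Each symbol matched 1 gene model, with no second symbol in the row, in each of the tables, which hold 30995, 31041 and 31042 models. All 9 were tested in all 3 tables and lay above a mean of 1 FPKM (a fragment count scaled to transcript length and to the size of the library).

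The libraries came from the frontal cortex of 12 male mice, 14 weeks old, F1 hybrids of C57Bl/6 and 129/SvlmJ, with 4 animals in each of 3 groups. The groups are WT (wild type), GluN1 (knockdown of Grin1, the obligatory subunit of NMDA-type glutamate receptors) and GluN1Cre (the knockdown with Cre, called the Cre rescue in the series title). Every animal, the wild types included, received tamoxifen for 2 weeks, starting when it was 10 weeks old: a gavage dose of 6 mg, and about 14 mg through the chow. The labels do not name the driver of Cre, and Cre is named for the GluN1Cre group alone, so effects of Cre and of restored Grin1 cannot be told apart. Each table compares a pair of groups and gives 1 FPKM per group, so no spread between animals and no read depth can be given.

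Cholesterol is built from acetyl-CoA through HMG-CoA, mevalonate and the isoprenoid diphosphates to squalene, which is closed into a ring and trimmed to cholesterol. The genes of the pathway are switched on together by SREBP2, a membrane-bound transcription factor that is released when sterols in the endoplasmic reticulum are low and held back there by Insig proteins when sterols are high. The brain makes its own cholesterol because lipoproteins of the blood do not cross its barrier, and oligodendrocytes, which wrap axons in cholesterol-rich myelin, and astrocytes are known as major producers.

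Against WT, all 9 genes lay lower in GluN1, by 3.53% for Idi1 up to 13.5% for Fdft1, and none passed the authors' test. All 9 also lay lower in GluN1Cre than in WT, by 7.01% for Dhcr7 up to 15.9% for Fdps, again with none past the threshold. Between GluN1Cre and GluN1 the folds lay around 0, with 7 below it and 2 above. Both comparisons against WT use the same WT animals, so the second is no independent repeat of the first.

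Grin1 itself was at 41.0% of the WT level in GluN1 and at 56.5% in GluN1Cre, and GluN1Cre stood at 132% of GluN1 (q = 0.00456, 0.0098 and 0.038 in the authors' deposited tables), as the group labels say. The Grin1 estimate for GluN1 was 56.7 FPKM beside WT and 65.7 FPKM beside GluN1Cre. For GluN1Cre it was 78.0 FPKM beside WT and 86.7 FPKM beside GluN1, so these shares are approximate. Of the 9 neuronal markers looked up, such as Snap25 and Slc17a7, none was at 0 in any group, and their summed level in WT was 3538 FPKM. Marker genes of tissue next to the cortex also differed between the groups: the summed level of 6 olfactory bulb markers was 50.8 FPKM in WT, 123.8 FPKM in GluN1 and 76.9 FPKM in GluN1Cre, and that of 6 markers of striatal medium spiny neurons was 99.98, 77.4 and 71.2 FPKM (GluN1Cre from its own table with WT). None of either list was at 0 in any group. In bulk tissue, fewer cells of a type and less RNA per cell cannot be told apart.

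The genes differed widely in level. Hmgcs1 was the most abundant of the 9 in WT and Idi1 the least, 34.9 times lower per length (means of the pair of tables that hold WT). Fdft1, Sqle and Insig1 followed Hmgcs1 at 26.1, 24.3 and 21.4 FPKM, Cyp51 and Dhcr7 lay at 14.7 and 12.4 FPKM, and Lss and Fdps at 8.48 and 5.21 FPKM. Idi1 lay at 2.68 FPKM. How much the animals of a group differed cannot be read from the tables, so neighbours in this order are not called different.

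**Figure D1:**
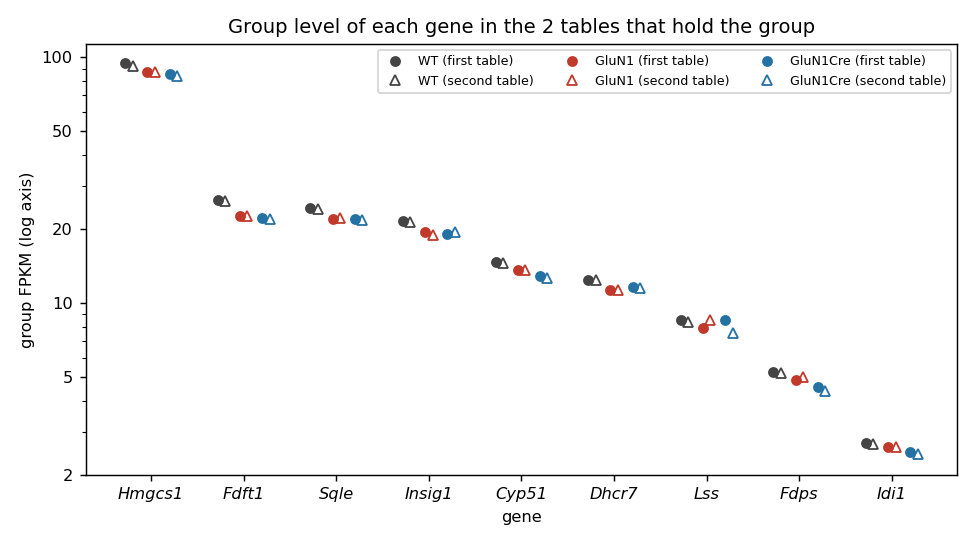
Group FPKM (log axis) of the 9 genes, sorted by their WT level, with grey for WT, red for GluN1 and blue for GluN1Cre. Each group has a filled circle and an open triangle for its estimates in the 2 tables that hold it; the WT marks stand highest for every gene except Lss, where a GluN1 and a GluN1Cre mark reach the WT level.

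Hmgcs1 stands at the entry of the pathway: its product, the cytosolic HMG-CoA synthase, joins acetyl-CoA and acetoacetyl-CoA. The gene (ENSMUSG00000093930) lies on the plus strand of chromosome 13 of GRCm38, from 119690379 to 119708260. Its level was 94.4 FPKM in WT and 87.4 FPKM in GluN1, 92.5% of the WT level. The log2 fold was -0.11, with a 95% interval of -0.26 to 0.04 (p = 0.145, q = 0.954 in the authors' deposited table). Intervals here are those that the deposited p implies if the fold varies normally. The interval holds 0, and its lower end is a fall of 16.6% of the WT level. The deposited test statistic implies a wider interval, from a fall of 24.8% to a rise of 13.9%, and wider ones for the other genes too.

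The bases before the start of Hmgcs1 are shown because its promoter window, of those RefSeq tables gave for 6 of the 9 genes, was the one that holds the consensus of the sterol regulatory element, the site that SREBP proteins bind. Those of Lss, which makes the first sterol, and of Insig1 are set beside it for comparison. Capitals mark matches of the sterol regulatory element (TCACNCCAC), the NF-Y motif CCAAT and the GC box GGGCGG, searched on both strands, so that ATTGG and CCGCCC are the last 2 on the reverse strand. All are on the plus strand of GRCm38.p6, read 5′ to 3′ and ending before the transcript start that RefSeq or GENCODE gives, whichever comes first: chr13:119690101-119690350 for Hmgcs1, chr10:76531355-76531587 for Lss and chr5:28071162-28071362 for Insig1.
Hmgcs1: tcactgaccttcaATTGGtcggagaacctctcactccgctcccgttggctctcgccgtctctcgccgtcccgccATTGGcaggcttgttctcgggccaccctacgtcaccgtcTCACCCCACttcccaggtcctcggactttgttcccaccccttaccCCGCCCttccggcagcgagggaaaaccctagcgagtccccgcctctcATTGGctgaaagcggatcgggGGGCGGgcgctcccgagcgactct
Lss: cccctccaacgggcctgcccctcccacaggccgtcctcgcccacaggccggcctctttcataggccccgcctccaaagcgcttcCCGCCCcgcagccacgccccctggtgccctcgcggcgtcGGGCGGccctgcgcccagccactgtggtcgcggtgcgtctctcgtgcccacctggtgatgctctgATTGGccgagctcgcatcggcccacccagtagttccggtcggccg
Insig1: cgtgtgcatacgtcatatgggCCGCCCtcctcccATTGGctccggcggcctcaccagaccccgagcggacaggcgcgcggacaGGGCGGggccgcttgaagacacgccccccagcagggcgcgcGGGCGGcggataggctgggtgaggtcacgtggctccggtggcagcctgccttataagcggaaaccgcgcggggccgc

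In the Hmgcs1 window the sterol element starts 137 bases before the transcript start, and NF-Y matches start 237, 176 and 45 bases before it, with a further one after it. The marked matches do not overlap each other. The sterol consensus is in 1.24% of the 32851 promoter windows of the RefSeq table. An NF-Y match was in the windows of 6 of the 6 genes found and a GC box in 6 of 6, counting for Dhcr7 any of its 3 windows. Counted by window, NF-Y was in 6 of 8 (37.4% of all windows) and the GC box in 7 of 8 (35.7% of all windows). The NF-Y matches of Dhcr7 were only in the window of the transcript start at 143830214. A match describes letters and not binding, and these windows reach 250 bases before and 50 bases after the start, so sites further out were not searched. Sqle, Fdft1 and Fdps are the genes with no window in the table.

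**Figure D2:**
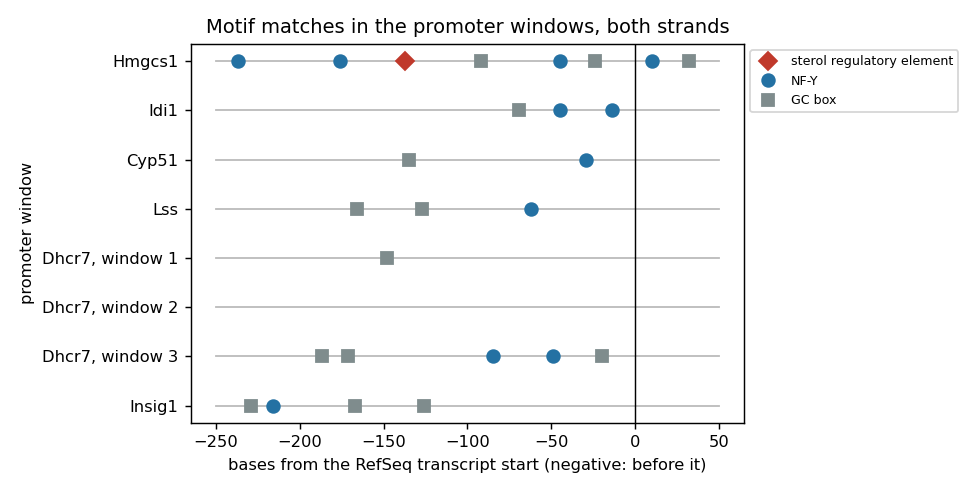
Position of motif matches on either strand, in bases from the RefSeq transcript start, in the 8 promoter windows of 6 genes. Hmgcs1 alone has a red diamond (sterol regulatory element). Blue circles (NF-Y) and grey squares (GC box) lie before a RefSeq transcript start of every gene, with 1 Dhcr7 window holding none of the 3 motifs. Some of these starts, such as that of Idi1, lie inside the gene as GENCODE places it, and so do matches before them.

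Idi1 and Fdps make the isoprenoid building blocks: isopentenyl diphosphate isomerase interconverts the pair of C5 units, and farnesyl diphosphate synthase joins them to the C15 unit from which squalene is made. Idi1 (ENSMUSG00000058258; chromosome 13, plus strand, 8885501 to 8892451) went from 2.70 FPKM in WT to 2.60 FPKM in GluN1, a log2 fold of -0.05 with an interval of -0.30 to 0.20. That was the smallest difference from WT among the 9. Fdps (ENSMUSG00000059743; chromosome 3, minus strand, 89093588 to 89101959) had 5.22 FPKM in WT and 4.85 FPKM in GluN1, a log2 fold of -0.11 with an interval of -0.37 to 0.16. Deposited p-values were 0.684 for Idi1 and 0.442 for Fdps.

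Fdft1 and Sqle commit the pathway to sterols: squalene synthase joins 2 farnesyl units head to head, and squalene epoxidase adds the oxygen needed for ring closure, a step known to limit the rate. Fdft1 (ENSMUSG00000021273; chromosome 14, minus strand, 63145150 to 63179578) went from 26.1 FPKM in WT to 22.6 FPKM in GluN1, 86.5% of the WT level and the lowest share of the 9. Its log2 fold of -0.21 was also the least precise, with an interval of -0.62 to 0.20 (p = 0.318 in the authors' deposited table). Sqle (ENSMUSG00000022351; chromosome 15, plus strand, 59315077 to 59331192) had 24.4 FPKM in WT and 22.02 FPKM in GluN1, a log2 fold of -0.15 with an interval of -0.31 to 0.01. Its p of 0.0746 was the smallest among the 9 in this table, with q = 0.751 in the authors' deposited table.

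Lss, Cyp51 and Dhcr7 act on the ring: lanosterol synthase closes squalene epoxide into lanosterol, the P450 enzyme Cyp51 removes its 14-alpha methyl group, and Dhcr7 reduces 7-dehydrocholesterol to cholesterol as the last step of 1 of the branches. Lss (ENSMUSG00000033105; chromosome 10, plus strand, 76531588 to 76557138) lay at 8.56 FPKM in WT and 7.93 FPKM in GluN1 (log2 fold -0.11, interval -0.31 to 0.09). Cyp51 (ENSMUSG00000001467; chromosome 5, minus strand, 4081145 to 4104746) lay at 14.7 and 13.6 FPKM (log2 fold -0.11, interval -0.40 to 0.18). Dhcr7 (ENSMUSG00000058454; chromosome 7, plus strand, 143823145 to 143848410) lay at 12.4 and 11.3 FPKM (log2 fold -0.14, interval -0.32 to 0.05). The 3 sterol enzymes stood within 90.9% to 92.6% of their WT level, and each interval holds 0.

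Insig1 is the regulator of the set, itself an SREBP target, whose protein keeps the SREBP escort Scap in the endoplasmic reticulum. The gene (ENSMUSG00000045294; chromosome 5, plus strand, 28071363 to 28078662) had 21.5 FPKM in WT and 19.4 FPKM in GluN1, 90.2% of the WT level. Its log2 fold was -0.15, with an interval of -0.32 to 0.02 (p = 0.0859, q = 0.791 in the authors' deposited table). The regulator lay below WT as the enzymes did, with an interval that holds 0.

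A model was called where the deposited p was under 0.05 and the q under 0.10, the limits the submitters set. Cuffdiff called 0 of the 9 in GluN1 against WT, where 2.52% of all 18417 tested models were called. At an unadjusted p under 0.05 it was also 0 of 9, against 7.91% of all models. The count of folds below 0 was 9 of 9, against 53.2% of the 13920 tested models with a mean of at least 1 FPKM. The median log2 fold of the 9 was -0.11, while that of all these models was -0.01, and 8 of the 9 lay below the lower quartile of all models (-0.07). The smallest absolute log2 fold that was called among these models was 0.24, so all 9 folds were smaller than any called among them. Summed over the 9 genes the level was 210.1 FPKM in WT and 191.7 FPKM in GluN1, with Hmgcs1 the largest single contribution. The 9 were chosen with earlier results known, so their counts and medians in each comparison are a description and no test. As genes that are switched on together in the same animals, they are not 9 separate observations.

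**Figure D3:**
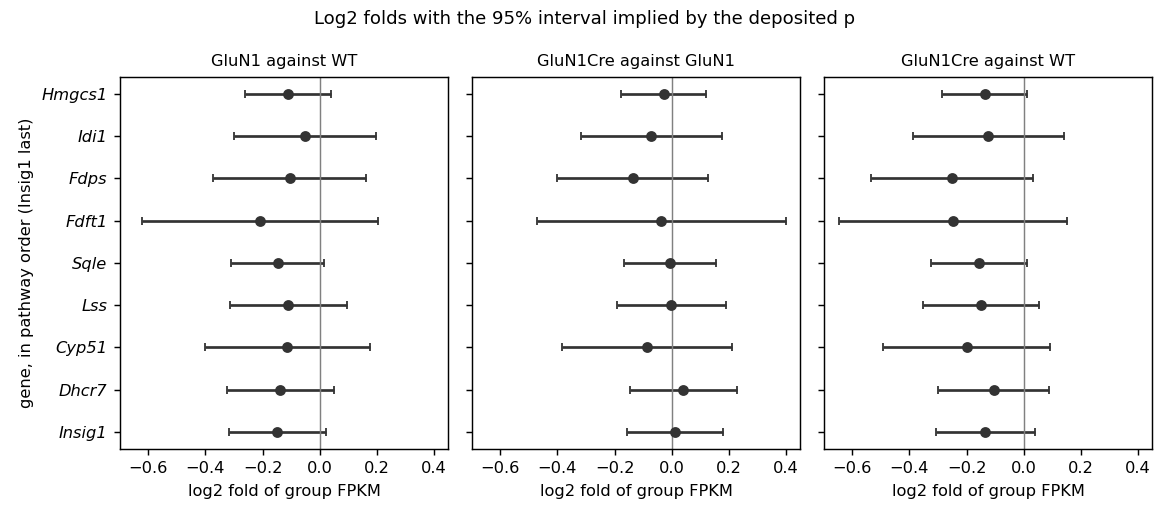
Log2 fold of the group FPKM (points) with the 95% interval implied by the deposited p (bars) for the 9 genes in each comparison, enzymes from top to bottom in the order of the pathway and Insig1 last. All points are left of 0 against WT, all 27 bars cross 0, and in the middle panel the points lie from -0.14 (Fdps) to 0.04 (Dhcr7).

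GluN1Cre was compared with GluN1 to ask whether levels move when Grin1 is partly restored. The levels of most of the 9 were close to each other in these groups. Sqle lay at 22.12 FPKM in GluN1 and 22.03 FPKM in GluN1Cre (log2 fold -0.01, interval -0.17 to 0.15), and Hmgcs1 at 87.1 and 85.5 FPKM (log2 fold -0.03, interval -0.18 to 0.12). The genes above 0 were Dhcr7, at 11.3 and 11.6 FPKM (log2 fold 0.04), and Insig1, at 19.0 and 19.1 FPKM (log2 fold 0.01). Fdps had the lowest fold, -0.14 with an interval of -0.40 to 0.13, at 4.99 FPKM in GluN1 and 4.54 FPKM in GluN1Cre.

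The other folds were -0.09 for Cyp51 (13.7 to 12.9 FPKM), -0.07 for Idi1 (2.61 to 2.48 FPKM), -0.04 for Fdft1 (22.7 to 22.1 FPKM) and -0.00 for Lss (8.57 to 8.56 FPKM). Cuffdiff called 0 of the 9 (0.689% of 18430 tested models), and at an unadjusted p under 0.05 the count was 0 of 9 (4.19% of all). Of the folds 7 of 9 were below 0, beside 52.5% of the 13893 models with a mean of at least 1 FPKM, and the median was -0.03 beside -0.00 for all. Summed levels were 192.1 FPKM in GluN1 and 188.8 FPKM in GluN1Cre. A return to the WT level of Hmgcs1 would be a log2 fold of about 0.11 in size, which lies inside its interval here, as 0 does.

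GluN1Cre against WT asks what differs from wild type with the rescue in place. Fdps was at 5.20 FPKM in WT and 4.37 FPKM in GluN1Cre, 84.1% of the WT level, with a log2 fold of -0.25 and an interval of -0.53 to 0.03 (p = 0.0839 in the authors' deposited table). Fdft1 was at 26.0 and 21.9 FPKM, 84.3% of WT, with the same fold of -0.25 and a wider interval of -0.65 to 0.15. Cyp51 stood at 87.1% of WT, at 14.6 and 12.7 FPKM (log2 fold -0.20, interval -0.49 to 0.09). These 3 were the lowest shares of the 9, and none of their intervals leaves out 0.

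The narrowest intervals belonged to Hmgcs1 and Sqle. Hmgcs1 lay at 92.6 FPKM in WT and 84.2 FPKM in GluN1Cre, a log2 fold of -0.14 with an interval of -0.28 to 0.01 (p = 0.0679 in the authors' deposited table from Cuffdiff). Sqle lay at 24.2 and 21.7 FPKM, a log2 fold of -0.16 with an interval of -0.32 to 0.01 (p = 0.0655 in the authors' deposited table from Cuffdiff). Insig1 was at 21.4 and 19.5 FPKM (log2 fold -0.13), Lss at 8.39 and 7.57 FPKM (-0.15), Idi1 at 2.66 and 2.44 FPKM (-0.12) and Dhcr7 at 12.4 and 11.6 FPKM (-0.10).

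Cuffdiff called 0 of the 9 in GluN1Cre against WT, where 0.841% of 18429 tested models were called, and 0 of 9 had an unadjusted p under 0.05 (4.32% of all). The folds of 9 of 9 were below 0 (55.8% of the 13835 models with a mean of at least 1 FPKM), with a median of -0.15 beside -0.01 for all of these. All 9 lay below the lower quartile of all models (-0.07). The smallest absolute log2 fold called in this table was 0.26, larger than each of the 9. Summed levels were 207.5 FPKM in WT and 185.9 FPKM in GluN1Cre. Here too the counts and the median of the 9 describe genes chosen with earlier results known.

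**Figure D4:**
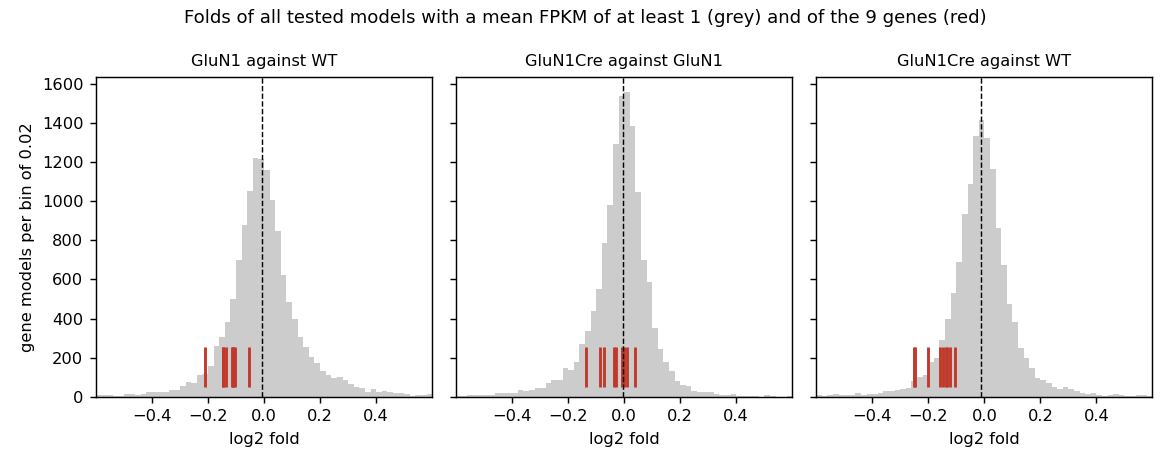
Histograms of the log2 folds of all tested models with a mean of at least 1 FPKM (grey, bins of 0.02, shown from -0.6 to 0.6) with the 9 genes as red ticks and the median of all models dashed. The red ticks sit left of the dashed line in both comparisons against WT, and on both sides of it in GluN1Cre against GluN1.

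Each group was estimated in a pair of tables from the same animals, which shows how far the estimate alone moves a value. Over the 9 genes and 3 groups the median absolute difference between these estimates was 0.02 on the log2 scale. Lss stood apart: GluN1 was 7.93 FPKM in one table and 8.57 FPKM in the other, and GluN1Cre 8.56 and 7.57 FPKM, absolute differences of 0.11 and 0.18. For Lss the estimates of the same animals thus differed by as much as the groups did. In the means of the pair of tables, WT was the highest group for 9 of 9 genes and GluN1Cre the lowest for 7 of 9, with Dhcr7 and Insig1 lowest in GluN1.

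Some of the 9 genes overlap neighbours, and the labels do not say whether reads were counted by strand. Fdft1 shares its assembled locus with Ctsb on the other strand, which codes for the protease cathepsin B. Ctsb lay at 98.6 FPKM in WT and 98.3 FPKM in GluN1 (log2 fold -0.00), and at a log2 fold of 0.03 in GluN1Cre against WT. Cyp51 shares its locus with Akap9, a scaffold protein gene on the other strand, which lay at 8.78 and 8.73 FPKM (log2 fold -0.01) and at a fold of 0.05 in GluN1Cre against WT. Lss shares its locus with 4930483K19Rik on the other strand, which was too low to be tested: 0.134 FPKM in WT and 0.0925 FPKM in GluN1 (log2 fold -0.54), and 0.133 FPKM in WT and 0.104 FPKM in GluN1Cre (log2 fold -0.36). Its level is a small fraction of that of Lss in each group. In GENCODE, Hmgcs1 also overlaps Gm48342 and Idi1 overlaps Gm48574, each on the other strand. Fdps overlaps Gm43738 and Gm22935 on its own strand. The levels of these neighbours were not read. How reads were split between overlapping genes or strands was not tested.

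A list of 13 other genes of cholesterol synthesis describes more of the pathway, though not every enzyme of it. Of their 13 measured models in GluN1 against WT, Cuffdiff called 0, 0 had an unadjusted p under 0.05, 11 had folds below 0, and the median log2 fold was -0.04. In GluN1Cre against GluN1 the list had 0 of 13 called, 6 folds below 0 and a median of 0.01. In GluN1Cre against WT it had 0 of 12 called, 1 at an unadjusted p under 0.05, 10 below 0 and a median of -0.06. The model of Sc5d was merged with that of Sorl1 in both tables that hold WT, so its value there is not that of Sc5d alone, and Idi2 was too low to be tested in any table. Tm7sf2 was merged with 1110014N23Rik in each comparison. Pmvk entered the counts with 2 models in both comparisons that include GluN1. Shares over all models, to set beside this list and the others, follow in the order GluN1 against WT, GluN1Cre against GluN1 and GluN1Cre against WT. Folds below 0 made up 53.2%, 52.5% and 55.8% of tested models with a mean of at least 1 FPKM. Of all tested models 2.52%, 0.689% and 0.841% were called, and 7.91%, 4.19% and 4.32% had an unadjusted p under 0.05.

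Of the 8 genes listed for the control of SREBP, 0 were called and 0 had an unadjusted p under 0.05 in each comparison, and 4 of 8 had folds below 0 in each. Medians were -0.01, 0.01 and 0.00 in GluN1 against WT, GluN1Cre against GluN1 and GluN1Cre against WT. Srebf2, which codes for SREBP2 itself, lay at 53.0 FPKM in WT and 49.2 FPKM in GluN1 (log2 fold -0.11, interval -0.28 to 0.06), and at 55.1 FPKM in WT and 52.4 FPKM in GluN1Cre (log2 fold -0.07).

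A list of 15 other SREBP targets, most of them enzymes of fatty acid synthesis and desaturation, held folds on both sides of 0 in GluN1 against WT. Of its 16 models 0 were called and 1 had an unadjusted p under 0.05, with 6 folds below 0 and a median of 0.01. Fasn, the fatty acid synthase, lay at 36.5 and 36.3 FPKM (log2 fold -0.01), an example chosen after its values were seen. Of the 16 models in GluN1Cre against GluN1 0 were called and 1 had an unadjusted p under 0.05, with 10 folds below 0 and a median of -0.04. Of the 15 in GluN1Cre against WT 0 were called and 0 had an unadjusted p under 0.05, with 13 folds below 0 and a median of -0.03.

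Genes of sterol transport, storage and removal, 17 models, had 0 calls in each comparison, with medians of 0.04, 0.02 and 0.00 in GluN1 against WT, GluN1Cre against GluN1 and GluN1Cre against WT. In the same order 1, 1 and 0 had an unadjusted p under 0.05. Folds above 0 numbered 11, 10 and 10, and folds below 0 numbered 6, 7 and 7. Genes of the isoprenoid side branches, which lead to prenylated proteins, dolichol and ubiquinone, had 0 of 9 models called in each, with medians of -0.04, -0.01 and -0.03. Of these 9, 0 had an unadjusted p under 0.05 in each comparison, and 6, 5 and 6 folds lay below 0. The counted model of Dhdds was merged with that of Hmgn2 in each. No test compared the 9 genes with these lists.

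**Figure D5:**
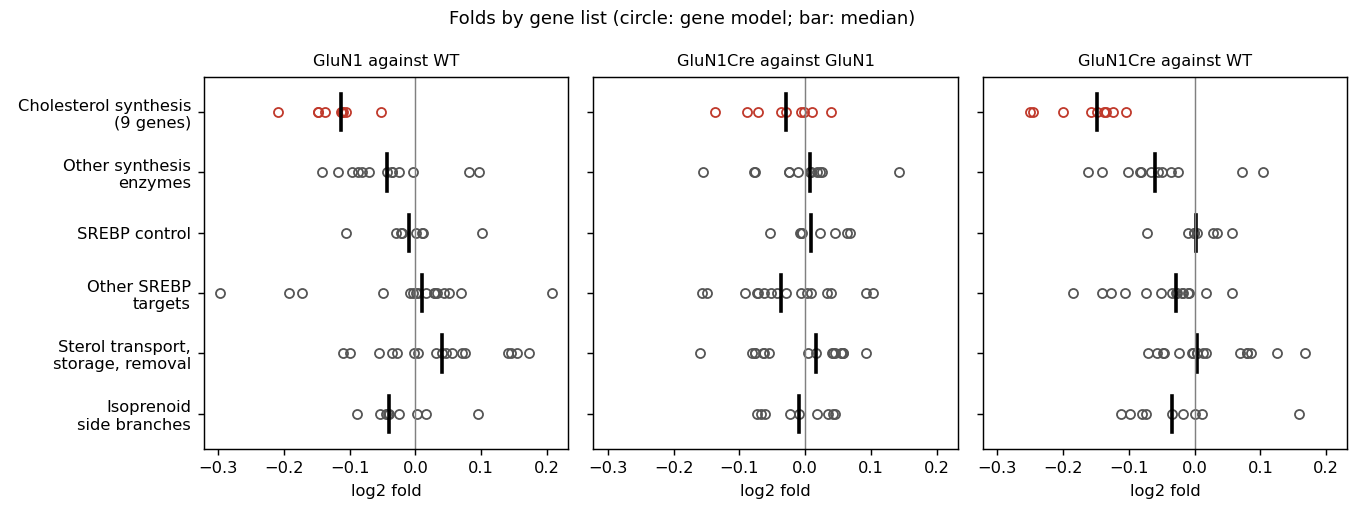
Log2 folds of the 9 genes (red circles) and of the models of 5 other lists with a mean of at least 1 FPKM (grey circles) in each comparison, with black bars at list medians. None of the models shown was called, and the medians of the 9 genes are -0.11, -0.03 and -0.15.

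Markers of the cells that make or hold sterols were read in the same libraries. Over all tested models, 2.52%, 0.689% and 0.841% were called in GluN1 against WT, GluN1Cre against GluN1 and GluN1Cre against WT. For oligodendrocytes, 1 of 12 measured marker models fell in GluN1 against WT, Opalin from 6.57 to 4.73 FPKM, and the summed level of the list was 1203 FPKM in WT and 1215 FPKM in GluN1. In GluN1Cre against GluN1 0 of 12 were called, with sums of 1221 and 1135 FPKM, and in GluN1Cre against WT 0 of 13, with sums of 1202 and 1126 FPKM. These sums include a model of Mobp merged with Rpsa in each comparison, so that part is not Mobp alone. The merged model lay at 137.4 FPKM in GluN1 and 119.2 FPKM in GluN1Cre in their comparison. For astrocytes, 2 of 8 rose in GluN1 against WT, Gfap and Aqp4, with sums of 649 and 704 FPKM, and 1 of 9, Gfap, rose in GluN1Cre against WT, with sums of 649.6 and 639.5 FPKM. In GluN1Cre against GluN1 2 of 9 astrocyte models fell, Gfap and Gjb6, all 9 folds were below 0, and the sums were 715 and 648 FPKM. For neurons, 2 of 10 rose in GluN1 against WT, Gad1 and Gad2, while the summed level was 3538 FPKM in WT and 3287 FPKM in GluN1. In GluN1Cre against GluN1 0 of 10 neuronal models were called, with sums of 3299.7 and 3326 FPKM, and in GluN1Cre against WT 0 of 9, with sums of 3525 and 3300.2 FPKM.

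Endothelial markers had 0 of 4 models called in each comparison, 2 at an unadjusted p under 0.05 in GluN1 against WT and 1 in GluN1Cre against WT, and 4 of 4 folds above 0 in both. Their sums were 52.0 FPKM in WT and 58.4 FPKM in GluN1, 58.6 FPKM in GluN1 and 57.0 FPKM in GluN1Cre, and 51.2 FPKM in WT and 55.9 FPKM in GluN1Cre. Markers of oligodendrocyte precursors had 0 of 6 called in each, with 6, 1 and 3 of 6 folds above 0 and sums of 80.1 and 84.5, 85.0 and 80.7, and 80.3 and 79.8 FPKM in the same order of comparisons. Microglial markers had 0 of 6 called in each, with sums between 90.3 and 96.1 FPKM.

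Against WT, the summed neuronal markers were lower in both other groups, as the summed 9 genes were, the endothelial ones were higher in both, and the oligodendrocyte ones were lower in GluN1Cre. The oligodendrocyte sum was 1203 FPKM in WT and 1215 FPKM in GluN1, though 7 of the 12 folds lay below 0 and 5 above. The summed astrocyte markers were higher in GluN1 and lower in GluN1Cre (649.6 FPKM in WT and 639.5 FPKM in GluN1Cre). Such sums weigh the most abundant markers most, and the neuronal markers that were called, Gad1 and Gad2, rose in GluN1. None of these markers was at 0 in any group. Of the bulb markers, 6 of 6 with a mean of at least 1 FPKM rose in GluN1 against WT and 4 of 5 in GluN1Cre against WT, and 6 of 6 fell in GluN1Cre against GluN1. Of the striatal markers, 5 of 6 fell in GluN1 against WT and 6 of 6 in GluN1Cre against WT. The part of these shifts in tissue and cell markers in the levels of the 9 genes was not tested.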

How the data were processed

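Frontal cortex of 12 mice was profiled by poly(A) RNA-seq. Tools listed, without roles, in the submitters' processing notes are Cuffdiff 2.2.1.3, Cufflinks 2.2.1.0, TopHat2 2.1.0, TopHat and FastQC 0.65. The notes give the build as both GRCm38 and mm10. Per the file headers, the authors deposited 3 Cuffdiff tables with 1 FPKM per group, a p-value and q-value per gene model, and a test statistic, here called a score. With 1 value per group, depth and the spread between animals are unknown.

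Rows were matched by symbol (Python 3.11.15, pandas 2.3.3). Log2 folds were recomputed from the deposited FPKM with no pseudocount. Calls are the authors' (p under 0.05, q under 0.10) over all tested models. The deposited q-values equalled a Benjamini-Hochberg adjustment of the deposited p-values to within 5.14e-07. The 95% intervals come from the deposited p taken as a two-sided normal p; the deposited statistic is 0.497 of that normal deviate in GluN1 against WT, so it implies intervals about 2 times as wide. The calling and interval steps were run on simulated normal folds, for which the interval formula returns the spread that was set, by construction. That run could not test whether the deposited p-values fit a normal fold. Each table has its own normalisation, and no test crosses tables.

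Gene positions are from GENCODE M21 and promoters from RefSeq, both on GRCm38. The members and lists were chosen with earlier results of these data known. By rule the text names all 9 members, Srebf2 and called genes of the pathway lists. Marker genes, neighbours in a shared assembled locus, Fasn, Sc5d and Idi2 fall outside it and were chosen after their values were seen. Other genes named for a merged or split model, or for an overlap in GENCODE, also fall outside it. Further genes of the pathway lists, 2 in number, are not reported here, and the list counts and medians leave them out.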

Additional observations from a re-analysis of the deposited data

How the results depend on the processing

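Of the 27 log2 folds of the 9 genes, each under 3 alternatives (a pseudocount of 1, centring on the median of all models, and the fold implied by the other tables), 80 of 81 values kept their direction. The exception was Lss in GluN1Cre against GluN1, at 0.0029 after centring. A pseudocount cannot change the direction of a fold. Centring can change it only for a fold nearer 0 than the median of all models. Much of this count was therefore fixed in advance. The median of the 9 ran from -0.14 to -0.11 in GluN1 against WT and from -0.04 to -0.02 in GluN1Cre against GluN1 under these alternatives, and was -0.14 under each of them in GluN1Cre against WT. The count of called members stayed 0 at q under 0.05, with q taken over models of at least 1 FPKM, and with p taken from the deposited statistic. None of these settings could have added a call. Each keeps the limit of p under 0.05, which no member met, and the statistic implies larger p-values. Single-symbol and FPKM filters removed no member. With p from the statistic, an alternative chosen after seeing the data, 41, 15 and 18 models were called over the whole tables in place of 464, 127 and 155, which that statistic's smaller size brings about. No paired analysis was possible because the tables hold 1 value per group, and for the same reason no animal could be left out. No sample's depth is known, and log2 differences under about 0.24 were not called for any model of at least 1 FPKM in GluN1 against WT.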
